A study of Arabidopsis thaliana with 24 samples.

Results

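Ageing of the shoot was examined in *nrt1.13* plants on low nitrate, by comparing the transcriptomes of 3 plants at 25 days with those of 3 plants at 16 days, all supplied with 0.2 mM KNO3. These 6 libraries were chosen by the genotype, nitrate supply and age that the labels give them, and belong to a series of 24 libraries, with 3 single plants in each of 8 groups. *nrt1.13* is a mutant in the Col-0 background with a T-DNA insertion in an exon of *NRT1.13* (AT1G33440), which encodes a member of the nitrate and peptide transporter family, and it was represented by a single insertion line. The groups set beside this comparison are *nrt1.13* at 2 mM KNO3 and the Col-0 wild type at 0.2 mM KNO3, each with 3 plants at 25 days and 3 at 16 days. All plants were grown in hydroponics, with KCl in place of the potassium salt that low-nitrate plants did not receive, and the whole shoot was taken. The labels count age from sowing in one field and from germination in the sample names, so age is given here simply as 25 or 16 days.

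A rosette passes from leaf growth through maturity towards senescence, in which chloroplasts are dismantled and their nitrogen is moved to younger organs, and a short supply of nitrate is known to bring senescence forward. Growth itself rests on ribosome production, which takes a large share of the nitrogen and phosphorus of a plant. Cold-regulated (*COR*) genes are switched on in the cold by CBF transcription factors and in drought by abscisic acid, and jasmonate and glucosinolates belong to the defence of leaves against wounding and herbivores.

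The 6 libraries held 23608279 to 45409665 counted reads, within the range of 23608279 to 46155689 over all 24, and the values are CPM, the reads of a gene scaled to library size. *NRT1.13* stood at 3.01, 4.002 and 3.26 CPM at 25 days, against 3.71, 4.42 and 2.19 CPM at 16 days, with overlapping plants, and did not pass the test (log2 FC = 0.041, adjusted P = 0.878). In the wild type at 0.2 mM KNO3 it averaged 8.07 CPM at 25 days, against 8.67 CPM at 16 days, so the mutant libraries were lower at both ages. All 43 genes of the light-harvesting complexes and photosystems passed the filter on low values, whereas none of 9 flower markers or 5 root markers did. The flower markers summed to 1.58 to 1.82 CPM at 25 days, against 3.15 to 3.28 CPM at 16 days, and the root markers to at most 0.228 CPM in any of the 6 libraries.

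Of 28775 genes, 15108 reached at least 2 CPM in all 24 libraries and were tested with limma on log2(CPM + 0.1). With a fold change of at least 1.8 and an adjusted P of at most 0.05, 301 genes rose at 25 days (1.99% of those tested) and 370 fell (2.45%). In the following, a gene that rose or fell passed both limits, and counts by the adjusted P alone leave out the fold limit and so include those genes. By the adjusted P alone, 3206 genes were higher (21.2%) and 4447 lower (29.4%), so that most of the differences with age were small: the median size of the log2 FC over all genes was 0.236 and its median was -0.0504. The 3 plants of one age lay wholly apart from those of the other in 7586 of the tested genes (50.2%), and in 662 of the 671 that rose or fell. Genes that rose made up 44.9% of the calls with the deposited scaling, 47.4% when the libraries were scaled on nuclear genes, 55.4% with median-ratio scaling (381 higher, 307 lower) and 56.5% in a count test on the recovered reads (393 higher, 303 lower), so no statement is made on which direction prevailed. In whole shoots, a lower level may come from fewer cells of a type or from less RNA in each cell, and these cannot be told apart.

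**Figure D1:**
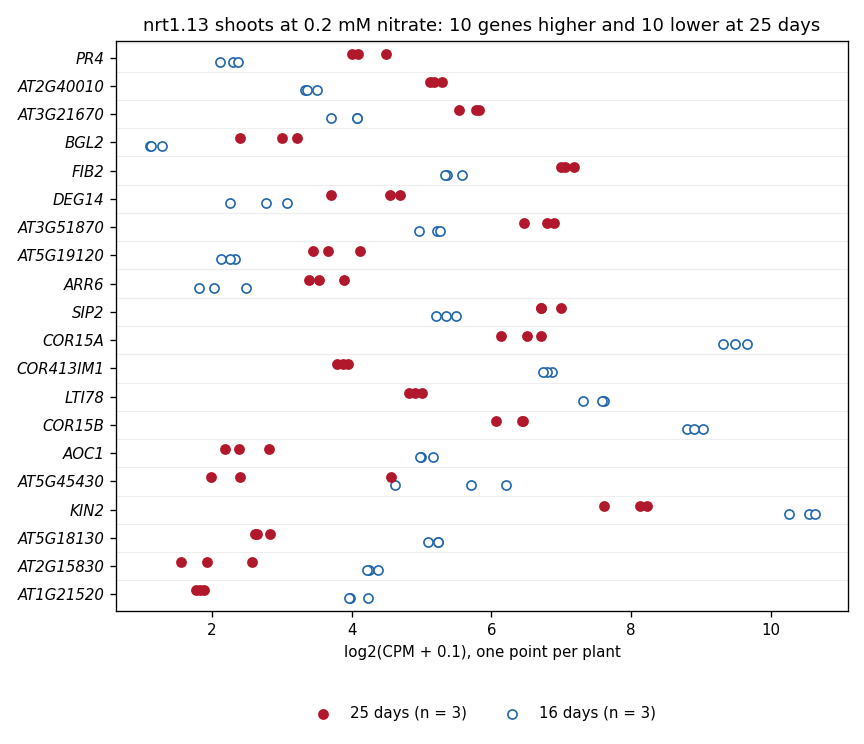
The 10 genes with the largest rise and the 10 with the largest fall at 25 days, as log2(CPM + 0.1) on the horizontal axis, with filled red points for the 3 plants at 25 days and open blue points for the 3 plants at 16 days. *COR15A* has the largest fall in log2 FC, with 70.2 to 104 CPM at 25 days against 635 to 809 CPM at 16 days, and AT5G45430 shows the widest spread between plants of one age.

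Of the 10 largest falls, 5 were of cold-regulated genes. *COR15A*, whose product protects chloroplast membranes during freezing, had 70.2, 104 and 91.1 CPM at 25 days, against 809, 635 and 719 CPM at 16 days (88.5 ± 17.1 CPM at 25 days and 721 ± 87.2 CPM at 16 days, SD, n = 3 each). The groups were far apart, and the level at 25 days was 8.21-fold lower (log2 FC = -3.04, SE = 0.135, adjusted P = 4.48e-15). *COR413IM1*, which encodes a protein of the chloroplast inner envelope, had 13.7, 14.6 and 15.4 CPM at 25 days, against 117, 111 and 107 CPM at 16 days. This was a 7.62-fold fall with little spread between plants (log2 FC = -2.93, SE = 0.12, adjusted P = 1.17e-15).

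*KIN2* (*COR6.6*), one of the most abundant of these transcripts, had 196, 280.3 and 299 CPM at 25 days, against 1488, 1226 and 1578 CPM at 16 days. Its lowest 16-day plant had more than any 25-day plant by a wide margin, and the fall was 5.6-fold (log2 FC = -2.48, SE = 0.11, adjusted P = 4.26e-15). *LTI78* (*RD29A*), the classical reporter of cold and abscisic acid responses, had 29.8, 31.9 and 28.2 CPM at 25 days, against 196, 192 and 158 CPM at 16 days, a 6.02-fold fall (log2 FC = -2.59, SE = 0.124, adjusted P = 1.7e-14), and *COR15B* had 66.6, 87.7 and 86.6 CPM at 25 days, against 519, 443 and 476 CPM at 16 days, a 6-fold fall (log2 FC = -2.58, SE = 0.0923, adjusted P = 1.1e-16). Both pairs of groups were free of overlap. *COR47*, a dehydrin, fell by less, with 102, 109.7 and 127 CPM at 25 days, against 321, 333 and 309.8 CPM at 16 days (log2 FC = -1.51, adjusted P = 1.59e-12).

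A list of 8 genes of cold and abscisic acid responses held *COR15A*, *KIN2*, *LTI78* and *COR47* among its 5 tested members, and these 4 fell. The fifth, *NCED3*, which makes the rate-limiting enzyme of abscisic acid synthesis, was lower by the adjusted P alone, with 3.01, 2.51 and 2.46 CPM at 25 days, against 4.28, 5.001 and 3.18 CPM at 16 days (log2 FC = -0.61, adjusted P = 0.0116). The median log2 FC of the 5 was -2.48, beside -0.0504 for all genes tested. The remaining 3 members were below the filter and were lower at 25 days with no overlap between ages; no overlap was also found for 1502 of the 8235 detected genes below the filter (18.2%). For such genes the exact permutation test of 3 plants against 3 cannot give a P below 0.1. In a fit with the filter set on the mean CPM, added after the data were seen, *KIN1*, a near copy of *KIN2*, had a log2 FC of -3.73 (adjusted P = 2.97e-11) and *RAB18* one of -0.99 (adjusted P = 0.000229).

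The upstream sequence of some of these genes holds the core of the C-repeat, the letters CCGAC to which CBF factors are known to bind. Below are the 250 bases before the annotated start (RefSeq, TAIR10.1, written in the direction of the gene), with each match on either strand in capitals, GTCGG being the match on the other strand. These 3 genes are cold-regulated members of the 10 largest falls, shown with and without matches. *COR413IM1*, also among these 10, was read too, had no match and is not printed. *COR15B*, another of them, is not printed because its 250 bases overlap another gene. *COR15A* is at chr2:17712331-17712580, minus strand, *LTI78* at chr5:21240467-21240716, plus strand and *KIN2* at chr5:5211469-5211718, plus strand.
COR15A: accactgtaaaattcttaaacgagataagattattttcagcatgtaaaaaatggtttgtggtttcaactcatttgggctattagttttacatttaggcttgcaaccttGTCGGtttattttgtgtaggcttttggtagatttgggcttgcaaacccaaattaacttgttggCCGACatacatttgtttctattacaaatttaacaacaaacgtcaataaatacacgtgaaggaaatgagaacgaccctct
LTI78: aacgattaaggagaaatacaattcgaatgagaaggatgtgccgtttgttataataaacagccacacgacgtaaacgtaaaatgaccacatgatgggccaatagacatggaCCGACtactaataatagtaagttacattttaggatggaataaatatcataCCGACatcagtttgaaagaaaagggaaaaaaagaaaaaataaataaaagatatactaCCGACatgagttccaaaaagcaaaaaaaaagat
KIN2: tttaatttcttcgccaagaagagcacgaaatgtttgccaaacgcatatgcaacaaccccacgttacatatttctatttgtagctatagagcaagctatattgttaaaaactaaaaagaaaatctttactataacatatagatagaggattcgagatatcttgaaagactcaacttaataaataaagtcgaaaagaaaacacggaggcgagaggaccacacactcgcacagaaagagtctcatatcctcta
*COR15A* had 2 matches, at 142 and 79 bases before the start, *LTI78* had 3 and *KIN2* had none. Over the 15049 upstream sequences of tested genes that could be read, 2001 held the letters (13.3%), as did 2 of the 5 tested cold and abscisic acid genes and 2 of the 10 largest falls. A match is a description of the sequence and is no evidence of binding.

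None of *COR15A*, *COR413IM1*, *LTI78*, *COR15B* and *KIN2* fell with age at 2 mM KNO3, where *COR15B* and *KIN2* were lower by the adjusted P alone (log2 FC = -0.44 and -0.44). There, *COR413IM1* averaged 114 CPM at 25 days, against 110.4 CPM at 16 days and *COR15A* averaged 381 CPM at 25 days, against 455 CPM at 16 days in *nrt1.13* (log2 FC = -0.26, adjusted P = 0.246). The age effects at the 2 nitrate supplies differed by -2.98 on the log2 scale for *COR413IM1* (adjusted P = 8.22e-12) and by -2.78 for *COR15A* (adjusted P = 2.29e-10), the difference being tested itself as an interaction. The summed level of the 8 list members was 405, 532 and 552 CPM at 25 days, against 2833, 2404 and 2781 CPM at 16 days on 0.2 mM KNO3, and on 2 mM KNO3 it was 1447, 1415 and 1524 CPM at 25 days, against 1888, 1744 and 1899 CPM at 16 days. Low-nitrate plants thus had the highest sum at 16 days and the lowest at 25 days. In the wild type at 0.2 mM KNO3 the sum was 477, 513 and 396 CPM at 25 days, against 3019, 2779 and 3014 CPM at 16 days. The hour of harvest is not given in the sources used here, so for genes that follow the time of day, age and hour cannot be told apart.

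**Figure D2:**
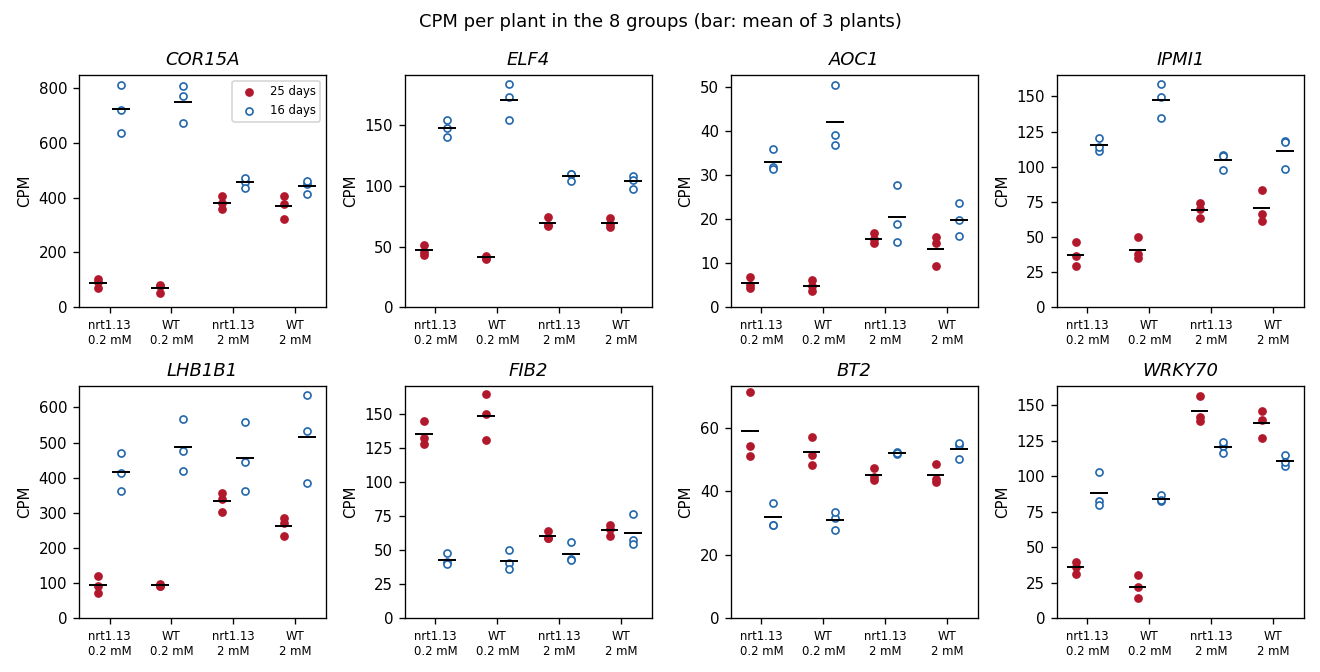
Level in CPM of 8 genes in every plant of the 8 groups, by genotype, nitrate supply and age, with a bar at the mean of 3 plants. *COR15A*, *AOC1*, *IPMI1* and *LHB1B1* are low in the 25-day plants on 0.2 mM KNO3 in both genotypes, *FIB2* is high in them, and *WRKY70* has 31.4 to 39.7 CPM in 25-day *nrt1.13* on 0.2 mM KNO3 against 79.9 to 103 CPM at 16 days.

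Genes that make aliphatic glucosinolates, the methionine-derived defence compounds of the cabbage family, were lower at 25 days almost throughout. Of 21 listed genes 19 were tested, 1 was below the filter and 1 was not analysed here. Of the 19, 11 fell (57.9%, against 2.45% of all genes), 18 were lower by the adjusted P alone (94.7%, against 29.4%) and none rose. The median log2 FC was -0.98, and the summed level of the list was 1737, 2148 and 1505 CPM at 25 days against 3327, 3522 and 3227 CPM at 16 days.

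The genes that fell covered successive steps of the pathway. For methionine chain elongation, *IPMI1*, an isopropylmalate isomerase, had 36.9, 46.6 and 29.1 CPM at 25 days, against 111, 114 and 121 CPM at 16 days, a 3.12-fold fall without overlap (log2 FC = -1.64, SE = 0.132, adjusted P = 1.89e-10). *IMD1*, the dehydrogenase that follows it, had 122, 153 and 108 CPM at 25 days, against 292, 306 and 323 CPM at 16 days (log2 FC = -1.28, adjusted P = 4.27e-10), and *BCAT4*, the aminotransferase that opens the chain, had 131, 168 and 109.8 CPM at 25 days, against 293, 311 and 301 CPM at 16 days (log2 FC = -1.17, adjusted P = 1.12e-09). In all of them the 3 plants of each age stood apart.

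For the building of the glucosinolate core, *CYP79F1*, the cytochrome P450 that turns chain-elongated methionine into an aldoxime, had 137, 187 and 98.8 CPM at 25 days, against 363, 394 and 319.8 CPM at 16 days (log2 FC = -1.39, adjusted P = 7.86e-09). *CYP79F2*, the sulfotransferases *SOT17* and *SOT18* and the side-chain oxygenases *FMO GS-OX1* and *FMO GS-OX3* fell too, by log2 FC values of -1.21, -1.01, -0.94, -0.98 and -1.17. Of the MYB activators of the pathway none fell in the main test. *MYB29* was lower by the adjusted P alone, with 32.5, 34.1 and 32.3 CPM at 25 days, against 51.1, 51.8 and 51.4 CPM at 16 days (log2 FC = -0.64, adjusted P = 1.03e-06), and *MYB28*, the main activator of the pathway, had a log2 FC of -0.18. *MYB76*, the remaining activator and below the filter, had a log2 FC of -1.41 in the mean-CPM fit (adjusted P = 2.85e-06). *IMD1* shares 2.42% of its 75-base windows with other genes and overlaps the neighbouring AT5G14210. Without any single one of the 6 libraries, 8 to 12 of the list fell. At 2 mM KNO3 the median log2 FC of the list was -0.34, and for 13 of its 19 genes the age effect was lower at 0.2 mM than at 2 mM by the interaction test, which called 15.9% of all genes in that direction.

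Jasmonate genes were lower as well, with plant 2 at 25 days apart from the others. Of 18 listed genes 12 were tested. Of these genes of jasmonate synthesis and response, 5 fell (41.7%, against 2.45% of all genes), 9 were lower by the adjusted P alone (75%, against 29.4%) and none was higher, with a median log2 FC of -0.84. *AOC1*, an allene oxide cyclase, had 5.14, 6.95 and 4.46 CPM at 25 days, against 35.9, 31.8 and 31.5 CPM at 16 days, a 5.99-fold fall (log2 FC = -2.58, SE = 0.208, adjusted P = 2.14e-10), and *AOC2*, its neighbour on the chromosome and more abundant, had 130.1, 219.7 and 149 CPM at 25 days, against 408, 363 and 417 CPM at 16 days (log2 FC = -1.29, adjusted P = 2.26e-08). The upstream enzymes followed. *AOS*, allene oxide synthase, had 127, 196 and 126 CPM at 25 days, against 291, 274 and 274 CPM at 16 days (log2 FC = -0.94, adjusted P = 1.4e-07), and *LOX2*, the chloroplast lipoxygenase at the head of the pathway, had 1011, 1688 and 956 CPM at 25 days, against 2400.2, 2279.8 and 1857 CPM at 16 days (log2 FC = -0.88, adjusted P = 0.000112).

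Of the response genes, *JAZ1*, a repressor that jasmonate itself induces, had 8.37, 9.59 and 6.03 CPM at 25 days, against 15.5, 15.8 and 15.4 CPM at 16 days and fell (log2 FC = -0.98, adjusted P = 0.00121). *VSP1*, a vegetative storage protein, had 31.4, 179 and 36.9 CPM at 25 days, against 98.7, 137 and 130.4 CPM at 16 days, and did not pass the test (log2 FC = -1.03, adjusted P = 0.105). Plant 2 at 25 days had about as much *VSP1* as the 16-day plants, while plants 1 and 3 had far less. The summed list showed the same plant, with 1646, 3034 and 1647 CPM at 25 days, against 3863, 3789 and 3492 CPM at 16 days. Without plant 2 at 25 days 10 of the 12 genes fell, without plant 1 at 25 days 3 did and without plant 3 at 25 days 2 did, an alternative that was chosen after the data were seen. Why this plant stood apart was not tested.

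Among the photosynthesis genes, a few members of the light-harvesting family changed strongly while most of the list moved little. Of 43 genes, 3 fell (6.98%, against 2.45% of all genes) and 1 rose (2.33%, against 1.99%). By the adjusted P alone 31 were lower (72.1%, against 29.4%) and 2 higher (4.65%, against 21.2%). The median log2 FC was -0.41. The sum over the list was 53690, 66110 and 65790 CPM at 25 days against 83700, 80440 and 84170 CPM at 16 days, and on 2 mM KNO3 it was 89930, 83890 and 84580 CPM at 25 days against 84560, 78120 and 84230 CPM at 16 days. On low nitrate the ages were thus separate, and on 2 mM KNO3 they overlapped.

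*LHB1B1*, a chlorophyll-binding protein of the photosystem II antenna, had 72.6, 91.3 and 121 CPM at 25 days, against 362, 412 and 470.1 CPM at 16 days, a 4.43-fold fall (log2 FC = -2.15, SE = 0.165, adjusted P = 9.13e-11). Its tandem neighbour *LHB1B2* had 986, 1373 and 1537 CPM at 25 days, against 2843, 2698 and 3339 CPM at 16 days (log2 FC = -1.21, adjusted P = 7.23e-08), and *PSAE-2*, a subunit on the stromal side of photosystem I, had 367, 477 and 541 CPM at 25 days, against 856, 795 and 884 CPM at 16 days (log2 FC = -0.89, adjusted P = 5.1e-09). *CAB1*, the most abundant of the family members named here, had 9199.5, 10843 and 11339 CPM at 25 days, against 10672, 10036 and 11373 CPM at 16 days and did not pass the test (log2 FC = -0.036, adjusted P = 0.78).

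Members of the antenna differed widely, and *LHCB4.3* and *CAB2* went the other way. *LHCB4.3*, a variant of the minor antenna protein CP29, had 42.7, 65.7 and 53.7 CPM at 25 days, against 25.4, 24.1 and 25.8 CPM at 16 days and rose 2.11-fold (log2 FC = 1.08, SE = 0.127, adjusted P = 1.17e-07), and it rose on 2 mM KNO3 as well (log2 FC = 1.22, adjusted P = 4.29e-07). *CAB2* had 598, 626 and 653 CPM at 25 days, against 419.9, 344 and 339 CPM at 16 days, higher by the adjusted P alone (log2 FC = 0.77, adjusted P = 4.34e-07). These genes have near copies, and 7.27% of the 75-base windows of *LHB1B1*, 9.27% of those of *LHB1B2* and 10.4% of those of *CAB2* occur elsewhere in the genome, so their split is less certain than their sum. The number that fell was 7 without plant 3 at 25 days and 5 without plant 2 of either age. Of the 5 genes of Rubisco and its activase none rose or fell, 3 were higher by the adjusted P alone and 1 lower. The higher ones were *RCA*, the activase (log2 FC = 0.63, adjusted P = 3.12e-06), and the small subunits *RBCS1B* (log2 FC = 0.38, adjusted P = 0.0012) and *RBCS2B* (log2 FC = 0.24, adjusted P = 0.0272), while *RBCS3B* was lower (log2 FC = -0.45, adjusted P = 0.00111). The small subunits have near copies too, with 5.33% to 14.1% of the windows of these 3 shared.

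**Figure D3:**
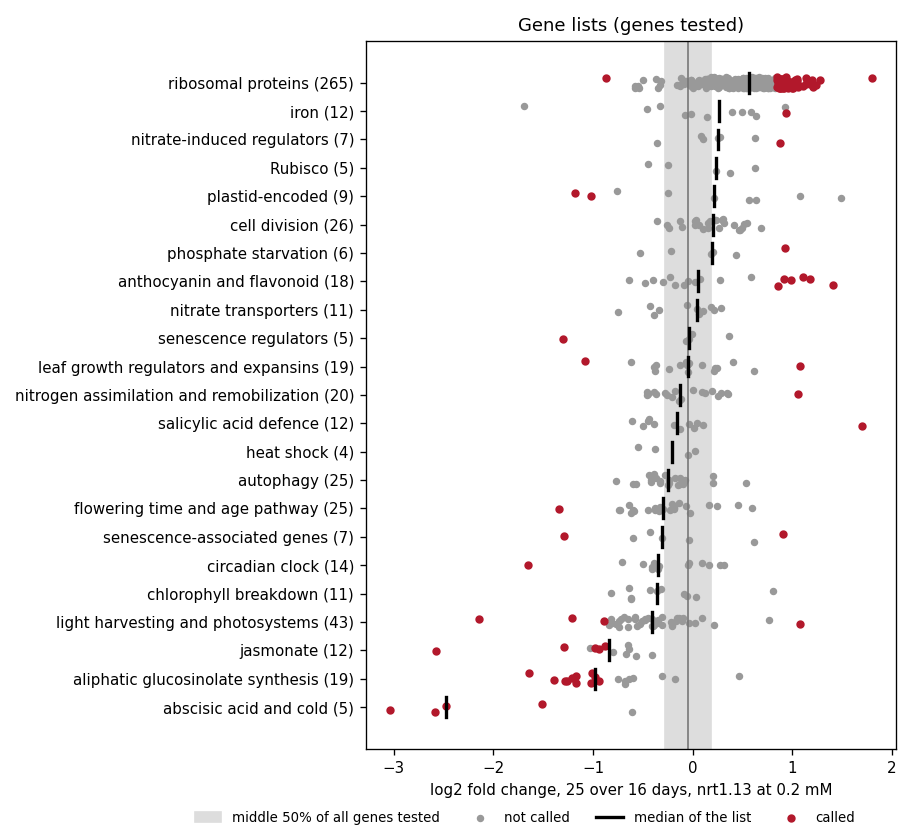
Log2 FC at 25 against 16 days for every tested gene of each list, 1 point a gene, with red points for genes that rose or fell, a black bar at the list's median and a grey band for the middle 50% of all tested genes. The ribosomal protein list lies to the right with a median of 0.57 and the cold and glucosinolate lists lie to the left with medians of -2.48 and -0.98.

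The ribosomal proteins, the largest list, held the most genes that rose by number, although by share the anthocyanin and flavonoid list held more (33.3% of 18). Of 296 genes described as ribosomal proteins, 265 were tested, of which 55 rose (20.8%, against 1.99% of all genes), 1 fell, and 208 were higher by the adjusted P alone (78.5%, against 21.2%) and 10 lower (3.77%, against 29.4%). The median log2 FC was 0.57 and the range -0.869 to 1.8, with 26 members below 0. Summed over the family, the level was 78150, 82220 and 86620 CPM at 25 days against 55070, 52840 and 55540 CPM at 16 days. On 2 mM KNO3 it was 57720, 55210 and 56070 CPM at 25 days against 52650, 55370 and 51660 CPM at 16 days. Of these 4 groups of *nrt1.13* plants only the 25-day plants on low nitrate stood high. Without any single one of the 6 libraries 46 to 58 of the family rose, and 68 rose with median-ratio scaling.

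The levels by plant of 4 of the 55 that rose follow. AT3G09630, of the L4/L1 family of the large subunit, had 745, 783 and 714 CPM at 25 days, against 373, 369 and 337 CPM at 16 days, a 2.08-fold rise (log2 FC = 1.06, SE = 0.0747, adjusted P = 2.53e-11). AT3G07110, of the L13 family, had 448, 487 and 506 CPM at 25 days, against 236, 223 and 237 CPM at 16 days (log2 FC = 1.05, adjusted P = 6.25e-12), and AT5G27850, of the L18e/L15 family, had 696, 682 and 767 CPM at 25 days, against 358, 351 and 352 CPM at 16 days (log2 FC = 1.01, adjusted P = 3.35e-11). In these abundant transcripts the ages did not overlap. AT5G39850, described as ribosomal protein S4 of the small subunit and much less abundant, had 20.05, 19.3 and 20.6 CPM at 25 days, against 7.53, 8.84 and 8.22 CPM at 16 days (log2 FC = 1.28, adjusted P = 2.92e-10).

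The largest rise in the family was that of AT2G40010, of the L10 family, which had 36.2, 34.7 and 39.2 CPM at 25 days, against 9.96, 10.14 and 11.2 CPM at 16 days, 3.49-fold more at 25 days (log2 FC = 1.803, SE = 0.126, adjusted P = 2.09e-11). An antisense gene, AT2G40008, overlaps it, and whether counting used the strand is not given in the sources used here. The single member that fell was AT3G14595, described as of the L18ae family, with 14.5, 16.1 and 18.5 CPM at 25 days, against 29.9, 29.8 and 29.7 CPM at 16 days (log2 FC = -0.87, adjusted P = 4.32e-08). Of the 264 tested family members other than AT2G40010, 13 share more than 5% of their 75-base windows with other genes, 3 of them among those that rose. AT2G40010 shares 0% of its windows. Only exact matches were searched, so copies that differ by a few bases were not assessed.

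Many ribosomal protein genes carry a site II element upstream, here the letters TGGGCC, to which TCP factors are known to bind, and some a telo box, AAACCCTA. Both were searched on both strands of the 250 upstream bases. TGGGCC was found for 126 of the 265 tested ribosomal genes (47.5%), beside 2823 of all 15049 sequences (18.8%), and AAACCCTA for 36 (13.6%), beside 549 of all (3.65%). The upstream sequences of the 3 abundant genes above show its place, with TGGGCC in capitals and GGCCCA being the match on the other strand (RefSeq, TAIR10.1). These 3 had the largest rises among the members whose 250 bases hold TGGGCC and overlap no other gene. That each has a match was thus fixed by the choice. AT3G09630 is at chr3:2953443-2953692, plus strand, AT3G07110 at chr3:2251696-2251945, plus strand and AT5G27850 at chr5:9872817-9873066, plus strand.
AT3G09630: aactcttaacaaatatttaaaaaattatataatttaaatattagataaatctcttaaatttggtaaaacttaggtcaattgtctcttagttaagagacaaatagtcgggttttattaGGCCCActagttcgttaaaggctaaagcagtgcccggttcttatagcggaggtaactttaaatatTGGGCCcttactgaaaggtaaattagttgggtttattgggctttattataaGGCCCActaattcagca
AT3G07110: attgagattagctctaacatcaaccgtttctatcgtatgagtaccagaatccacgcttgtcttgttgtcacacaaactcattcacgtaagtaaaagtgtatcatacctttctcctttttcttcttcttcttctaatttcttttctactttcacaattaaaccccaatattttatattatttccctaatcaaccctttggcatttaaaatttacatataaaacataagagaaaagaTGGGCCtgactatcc
AT5G27850: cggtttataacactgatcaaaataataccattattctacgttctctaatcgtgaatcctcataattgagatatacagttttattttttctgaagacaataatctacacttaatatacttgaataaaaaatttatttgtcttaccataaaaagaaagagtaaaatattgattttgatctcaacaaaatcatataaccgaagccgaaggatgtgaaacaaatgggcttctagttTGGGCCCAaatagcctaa
AT3G09630 had 3 matches, AT3G07110 had 1, 15 bases before the start, and AT5G27850 had 2 that overlap in 1 palindromic stretch. None of the 3 held the telo box.

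Genes of ribosome assembly stood with the ribosomal proteins, in lists that were put together after the data were seen and are given as a description. Of 49 tested out of 59 genes described as nucleolar or of rRNA processing 9 rose (18.4%, against 1.99% of all genes), 1 fell and 34 were higher by the adjusted P alone (69.4%, against 21.2%), with a median log2 FC of 0.52. *FIB2* encodes fibrillarin, which methylates ribosomal RNA in the nucleolus, and had 145, 133 and 128 CPM at 25 days, against 47.8, 41.0 and 40.1 CPM at 16 days (135 ± 8.89 CPM at 25 days and 43.0 ± 4.19 CPM at 16 days, SD, n = 3 each). The rise was 3.15-fold (log2 FC = 1.65, SE = 0.121, adjusted P = 3.83e-11), and the gene shares its strand and position in part with AT4G25631. AT5G08600, of the U3 ribonucleoprotein, had 20.01, 16.2 and 14.2 CPM at 25 days, against 8.07, 6.10 and 5.29 CPM at 16 days (log2 FC = 1.37, adjusted P = 3.86e-07). AT2G40020, described as related to a nucleolar histone methyltransferase, was the one that fell, with 10.6, 11.96 and 18.01 CPM at 25 days, against 32.3, 30.7 and 35.5 CPM at 16 days (log2 FC = -1.31, adjusted P = 1.06e-08). Without plant 1 at 25 days, 3 of the list rose.

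Genes of protein folding and organelle RNA were also higher more often than lower. The lists in this paragraph, too, were put together after the data were seen and are given as a description. Of 19 tested out of 20 chaperonin genes 3 rose (15.8%, against 1.99% of all genes), 17 were higher by the adjusted P alone (89.5%, against 21.2%) and 2 lower, and *CPN60A*, a subunit of the chloroplast chaperonin that folds Rubisco, had 1867, 2023 and 1627 CPM at 25 days, against 834, 826 and 719 CPM at 16 days (log2 FC = 1.21, adjusted P = 4.07e-10). Of 165 tested out of 261 pentatricopeptide repeat genes, which act on RNA in chloroplasts and mitochondria, 8 rose (4.85%, against 1.99% of all genes) and none fell. By the adjusted P alone 83 were higher (50.3%, against 21.2%). Among them *SVR7*, a chloroplast member, had 180.3, 155 and 121 CPM at 25 days, against 57.9, 56.1 and 52.2 CPM at 16 days (log2 FC = 1.44, adjusted P = 2.41e-11), with no overlap. Without plant 1 at 25 days, 4 of these genes rose. Of 74 genes whose description names a tRNA ligase or synthetase 55 were tested. None of them rose, 1 fell, 35 were higher by the adjusted P alone (63.6%, against 21.2% of all genes) and 3 lower. The gene that fell, AT3G16565, is described only as holding a domain of threonyl and alanyl tRNA synthetases (log2 FC = -1.03).

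Most other genes at the head of the rising side belonged to no common list. *PR4*, which encodes a pathogenesis-related chitin-binding protein, had the largest rise, with 16.9, 16.01 and 22.3 CPM at 25 days, against 4.85, 5.07 and 4.22 CPM at 16 days, 3.81-fold (log2 FC = 1.93, SE = 0.23, adjusted P = 1.44e-07). It rose on 2 mM KNO3 too (log2 FC = 1.61, adjusted P = 4.01e-05), and the difference between nitrate supplies did not pass the test (adjusted P = 0.495). AT3G21670, of the major facilitator superfamily and known as *NPF6.4*, in the same transporter family as *NRT1.13*, had 54.8, 56.7 and 46.5 CPM at 25 days, against 16.7, 16.7 and 12.9 CPM at 16 days (log2 FC = 1.77, adjusted P = 2.09e-11). AT3G51870, a mitochondrial carrier family member, had 119, 111 and 88.6 CPM at 25 days, against 37.2, 38.3 and 31.1 CPM at 16 days (log2 FC = 1.57, adjusted P = 2.43e-11).

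*ARR6*, a cytokinin-induced response regulator, had 14.7, 10.4 and 11.5 CPM at 25 days, against 5.48, 3.97 and 3.43 CPM at 16 days (log2 FC = 1.49, adjusted P = 6.67e-09), and *SIP2*, annotated as seed imbibition 2 and a raffinose-hydrolysing enzyme, had 127, 105 and 104 CPM at 25 days, against 44.8, 40.7 and 36.8 CPM at 16 days (log2 FC = 1.45, adjusted P = 4.49e-12). Their plants did not overlap between ages. *DEG14*, a protease with a PDZ domain, and AT5G19120, an aspartyl protease family member, completed the 10 largest rises, with log2 FC values of 1.61 and 1.503. AT3G51870, *ARR6* and *DEG14* each overlap a gene on the other strand.

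On the falling side, outside the lists above, AT5G18130, AT2G15830 and AT1G21520, annotated as uncharacterized proteins, had log2 FC values of -2.48, -2.26 and -2.23. AT5G18130 had 7.04, 6.16 and 6.03 CPM at 25 days, against 37.5, 37.4 and 33.9 CPM at 16 days, clear of overlap. AT2G15830 and AT1G21520 also fell on 2 mM KNO3, with log2 FC values of -1.48 and -1.36. AT5G45430, a protein kinase family member, had 23.6, 3.87 and 5.19 CPM at 25 days, against 52.4, 24.5 and 73.9 CPM at 16 days, a call that rests on plants of very unequal level (log2 FC = -2.53, SE = 1.04, adjusted P = 0.0453) and was lost in 7 of the alternatives, with adjusted P values up to 0.16.

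Genes known to drive or mark leaf senescence did not rise as a group. Of 18 senescence regulators 5 were tested, of which none rose and 1 fell. Of the 13 below the filter 1 was higher in all plants at 25 days (*NAC016*) and 5 were lower without overlap. Over all 8235 detected genes below the filter, 666 were higher and 836 lower without overlap. The regulator that fell was *WRKY70*, a repressor of senescence that also serves salicylic acid defence, with 31.4, 36.4 and 39.7 CPM at 25 days, against 82.5, 79.9 and 103 CPM at 16 days (log2 FC = -1.298, SE = 0.149, adjusted P = 7.61e-08). Among the genes below the filter, *NAC6* (*ORE1*), a central activator of leaf senescence, had 0.571, 0.0880 and 0.444 CPM at 25 days, against 3.94, 3.60 and 5.13 CPM at 16 days (exact permutation P = 0.1, the smallest it can give). Its log2 FC in the mean-CPM fit was -3.38 (adjusted P = 1.15e-08). On 2 mM KNO3 it averaged 0.529 CPM at 25 days, against 3.64 CPM at 16 days in *nrt1.13*, so the low level at 25 days was not limited to low nitrate.

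*RD26*, a NAC factor that responds to abscisic acid, had 2.82, 3.25 and 3.57 CPM at 25 days, against 8.44, 8.12 and 10.5 CPM at 16 days (mean-CPM fit, log2 FC = -1.46, adjusted P = 2.45e-06). *HAI1*, a phosphatase that abscisic acid induces, had 2.22, 3.91 and 2.95 CPM at 25 days, against 10.6, 9.49 and 11.1 CPM at 16 days (mean-CPM fit, log2 FC = -1.78, adjusted P = 1.14e-07). Both were thus lower without overlap, like the cold-regulated genes. Of 7 tested out of 13 senescence-associated genes (*SAG*), *SAG24* rose, with 249, 227 and 227 CPM at 25 days, against 127, 121 and 128 CPM at 16 days (log2 FC = 0.91, adjusted P = 1.24e-09), and *SAG20* fell, with 15.2, 18.4 and 23.6 CPM at 25 days, against 42.3, 44.9 and 51.1 CPM at 16 days (log2 FC = -1.29, adjusted P = 6.2e-10). *SAG12*, the cysteine protease that marks late senescence, was at 0 or near it in all 6 libraries, at most 0.0285 CPM.

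**Figure D4:**
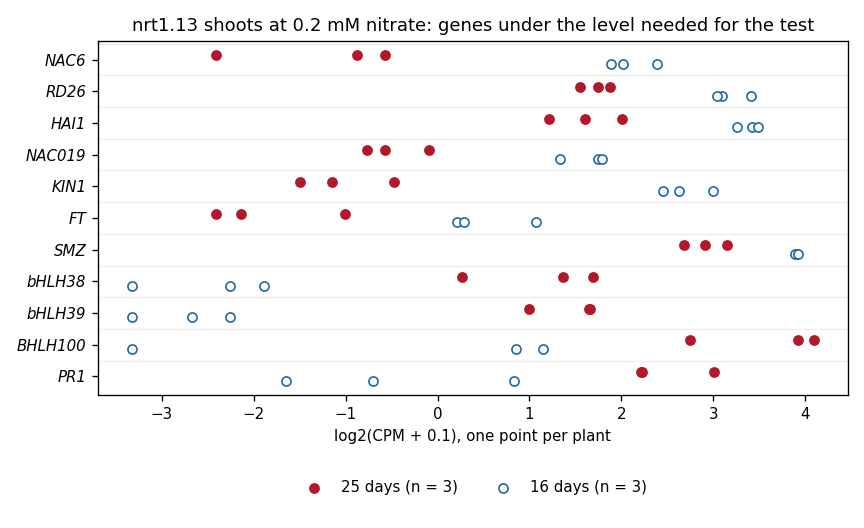
Levels as log2(CPM + 0.1) of 11 genes below the filter on low values, with 1 point a plant, for 25 days beside 16 days in *nrt1.13* at 0.2 mM KNO3. *NAC6*, *KIN1* and *FT* lie lower at 25 days, and *bHLH38*, *bHLH39*, *BHLH100* and *PR1* lie higher, with no overlap in any of them.

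Chlorophyll breakdown and autophagy genes differed little, and more of them were lower than higher. Of 11 tested out of 13 genes of chlorophyll breakdown none rose or fell, 7 were lower by the adjusted P alone (63.6%, against 29.4% of all genes) and 1 was higher. *ACD1* (*PAO*), which opens the chlorophyll ring, had 47.2, 49.7 and 46.6 CPM at 25 days, against 78.9, 81.7 and 64.5 CPM at 16 days (log2 FC = -0.64, adjusted P = 5e-07), *NYC1*, a chlorophyll b reductase, had a log2 FC of -0.62 (adjusted P = 2.54e-05) and *PPH*, pheophytinase, one of -0.43 (adjusted P = 1.44e-05). The exception was *MES16*, a demethylase of chlorophyll breakdown products, with 9.17, 11.1 and 11.4 CPM at 25 days, against 6.16, 5.72 and 6.003 CPM at 16 days (log2 FC = 0.81, adjusted P = 2.5e-06). Of 25 tested out of 27 autophagy genes none rose or fell, 13 were lower by the adjusted P alone (52.0%, against 29.4% of all genes), *APG8H* most with a log2 FC of -0.77, and *ATG8B* was higher (log2 FC = 0.54).

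In the clock, *ELF4*, which forms the evening complex with ELF3 and LUX, had 43.4, 45.7 and 51.5 CPM at 25 days, against 154, 140.0 and 148 CPM at 16 days and was the only one of 14 tested out of 18 clock genes to fall (log2 FC = -1.65, SE = 0.0699, adjusted P = 1.88e-15). It fell 3.15-fold without overlap, and its log2 FC on 2 mM KNO3 was -0.63. By the adjusted P alone 8 clock genes were lower (57.1%, against 29.4% of all genes) and 2 higher, among the lower *FKF1*, a blue-light receptor of the photoperiod pathway (log2 FC = -0.71), *PRR5* (log2 FC = -0.49) and *TOC1* (log2 FC = -0.39), all of which peak late in the day. The evening element, AAAATATCT on either strand, was in 4 of the 14 upstream sequences (28.6%) and in 394 of all (2.62%). As the hour of harvest of each age is not known, age and time of day cannot be told apart for these genes.

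Flowering time genes that rose or fell were about as rare as among all genes, and by the adjusted P alone more were lower than higher. Of 25 tested out of 33 genes 1 fell (4.0%, against 2.45% of all genes), none rose, 13 were lower by the adjusted P alone (52.0%, against 29.4%) and 2 were higher. *TEM1*, a repressor of *FT*, had 5.49, 5.37 and 7.54 CPM at 25 days, against 15.4, 13.5 and 17.7 CPM at 16 days (log2 FC = -1.34, SE = 0.132, adjusted P = 6.62e-09), while its log2 FC on 2 mM KNO3 was -0.14 (adjusted P = 0.535). *FT*, the mobile flowering signal, was below the filter, with 0.127, 0.0880 and 0.399 CPM at 25 days, against 1.997, 1.06 and 1.124 CPM at 16 days (exact permutation P = 0.1). Both the repressor and its target were thus lower in every 25-day plant.

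Other floral repressors were lower by the adjusted P alone, among them *TOE2* (log2 FC = -0.72), *AGL31* (*MAF2*; log2 FC = -0.60) and *SVP* (log2 FC = -0.38). *SMZ*, a further repressor, had 7.39, 8.75 and 6.30 CPM at 25 days, against 14.9, 14.7 and 15.1 CPM at 16 days (mean-CPM fit, log2 FC = -0.997, adjusted P = 0.000332). *SPL9* and *SPL11*, which promote the change to the adult phase, were lower too (log2 FC = -0.63 and -0.59), and *AGL24* and *SPL4*, promoters of flowering, were higher (log2 FC = 0.60 and 0.46).

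Nitrogen genes gave few large changes. None of 11 tested out of 17 listed nitrate transporters rose or fell, with 4 lower by the adjusted P alone (36.4%, near the 29.4% of all genes) and 1 higher. The list does not hold AT3G21670 (*NPF6.4*), described above, which rose (log2 FC = 1.77). *NRT2.7*, a transporter of the vacuole membrane, had 14.5, 16.98 and 13.7 CPM at 25 days, against 23.2, 28.7 and 24.1 CPM at 16 days (log2 FC = -0.74, adjusted P = 7.84e-07), and *NRT1.7*, which loads nitrate from older leaves into the phloem, had 48.1, 55.3 and 43.7 CPM at 25 days, against 65.6, 66.9 and 59.7 CPM at 16 days (log2 FC = -0.39, adjusted P = 0.000655). Both were lower without overlap between ages.

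Of 20 tested out of 22 genes of nitrogen assimilation and remobilization *AMT1;2*, an ammonium transporter, rose, with 14.6, 21.8 and 15.4 CPM at 25 days, against 8.99, 7.36 and 7.98 CPM at 16 days (log2 FC = 1.06, adjusted P = 5.12e-08). Nitrate reductase *NIA2*, nitrite reductase *NIR1* and the NADH-dependent glutamate synthase *GLT1* were lower by the adjusted P alone (log2 FC = -0.45, -0.38 and -0.46). *GSR2*, a cytosolic glutamine synthetase, and *GDH2*, glutamate dehydrogenase, were higher (log2 FC = 0.25 and 0.35).

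Regulators that nitrate induces were higher at 25 days by the adjusted P alone in 4 of the 7 tested (57.1%, against 21.2% of all genes). In the other direction 1 was lower (14.3%, against 29.4%). Of 7 tested out of 9 genes *BT2*, which represses nitrate uptake genes, rose, with 54.4, 51.2 and 71.2 CPM at 25 days, against 36.5, 29.5 and 29.5 CPM at 16 days (log2 FC = 0.88, adjusted P = 5.41e-08), close to the fold limit and under it without plant 3 at 25 days or plant 2 or 3 at 16 days. *LBD39* and *LBD37*, repressors of nitrogen and anthocyanin genes, were higher by the adjusted P alone (log2 FC = 0.63 and 0.26), and *BT1* was lower (log2 FC = -0.36). The age effect was higher at 0.2 mM than at 2 mM for 3 of the 7 genes by the interaction test, which called 13.3% of all genes in that direction.

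Some anthocyanin and flavonoid genes rose and most did not, and in those that rose plant 2 at 25 days again stood apart. Of 18 tested out of 25 genes 6 rose (33.3%, against 1.99% of all genes), none fell and 3 were lower by the adjusted P alone (16.7%, against 29.4%), with a median log2 FC of 0.0508. Summed over the list, the level was 698.8, 1213 and 639.5 CPM at 25 days, against 703.1, 826.6 and 738.9 CPM at 16 days, so the ages overlapped. AT4G14090, a glycosyltransferase of the pathway, had 32.9, 78.8 and 28.3 CPM at 25 days, against 15.4, 19.2 and 13.05 CPM at 16 days (log2 FC = 1.41, adjusted P = 5.19e-05), and *GSTF12* (*TT19*), which carries anthocyanin to the vacuole, had 29.3, 58.5 and 29.1 CPM at 25 days, against 14.7, 18.5 and 15.6 CPM at 16 days (log2 FC = 1.18, adjusted P = 5.68e-05). *UF3GT*, another glycosyltransferase, had 19.03, 55.5 and 15.5 CPM at 25 days, against 10.6, 13.9 and 10.9 CPM at 16 days (log2 FC = 1.1104, adjusted P = 0.003). Plant 2 had the most of each, and without it 2 of the 6 rose, while without plant 3 at 16 days 3 did. *LDOX*, *AT5MAT* and *DFR* made up the 6 (log2 FC = 0.99, 0.92 and 0.86). *TT4*, chalcone synthase at the entry to flavonoids, had 222, 389 and 209.8 CPM at 25 days, against 242, 281 and 292 CPM at 16 days and did not pass the test (adjusted P = 0.853).

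In salicylic acid defence *BGL2* (*PR2*), a glucanase, rose, with 9.17, 7.92 and 5.17 CPM at 25 days, against 2.05, 2.33 and 2.08 CPM at 16 days (log2 FC = 1.6995, SE = 0.281, adjusted P = 1.69e-05), and no other of 12 tested out of 21 genes rose or fell, with 4 lower by the adjusted P alone (33.3%, near the 29.4% of all genes). *PR1*, the usual marker of this response and below the filter, had 4.57, 4.53 and 7.92 CPM at 25 days, against 0.514, 1.68 and 0.219 CPM at 16 days, without overlap (exact permutation P = 0.1). In the wild type at 0.2 mM KNO3 *PR1* averaged 3.64 CPM at 25 days, against 0.0343 CPM at 16 days.

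Among the tested iron genes 4 were higher by the adjusted P alone (33.3%, against 21.2% of all genes) and none was lower, although *FER1* was lower in some settings. Of 12 tested out of 19 genes *FRO3*, a mitochondrial ferric reductase, rose, with 41.6, 24.4 and 40.8 CPM at 25 days, against 20.9, 11.5 and 24.3 CPM at 16 days (log2 FC = 0.94, adjusted P = 0.00553), and this was lost without plant 1 or 3 at 25 days or plant 2 at 16 days. Of the 7 genes below the filter 6 were higher without overlap, against 666 of all 8235 detected genes below the filter. *bHLH38* had 2.47, 1.0996 and 3.13 CPM at 25 days, against 0.171, 0 and 0.110 CPM at 16 days, *bHLH39* had 3.04, 1.89 and 3.04 CPM at 25 days, against 0.0571, 0 and 0.110 CPM at 16 days and *BHLH100* had 16.9, 6.60 and 14.995 CPM at 25 days, against 1.71, 0 and 2.11 CPM at 16 days, which are regulators that iron shortage induces. Their log2 FC values in the mean-CPM fit were 3.59, 4.18 and 4.02 (adjusted P = 2.07e-06, 7.97e-09 and 0.000791), with all 3 genes at 0 in plant 2 at 16 days, so these are not exact folds. *FER1*, the iron store ferritin, had 315, 71.1 and 66.7 CPM at 25 days, against 624, 1058 and 76.4 CPM at 16 days and did not pass the test (log2 FC = -1.69, adjusted P = 0.055). It passed as lower with edgeR on the recovered reads (adjusted P = 0.0281), with the replicate number as a block (adjusted P = 0.0221) and without plant 1 at 25 days (adjusted P = 0.0127), plant 3 at 16 days (adjusted P = 0.000954) or wild-type plant 2 at 25 days on 2 mM KNO3 (adjusted P = 0.026). Without any other of the 6 plants compared, its adjusted P was 0.174 to 0.321. Of 6 tested out of 12 phosphate starvation genes *PAP17*, an acid phosphatase, rose, with 12.2, 12.8 and 9.27 CPM at 25 days, against 5.68, 5.51 and 6.52 CPM at 16 days (log2 FC = 0.93, adjusted P = 1.36e-05), under the fold limit without plant 2 at 25 days.

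Cell cycle genes differed little, and more of them were higher than lower. Of 26 tested out of 28 genes none rose or fell, 12 were higher by the adjusted P alone (46.2%, against 21.2% of all genes) and 1 was lower. *PRL* (*MCM7*), a subunit of the replication helicase, had 45.7, 40.5 and 42.7 CPM at 25 days, against 30.5, 29.8 and 27.4 CPM at 16 days (log2 FC = 0.55, adjusted P = 3.77e-07), with *PCNA2*, the sliding clamp, at a log2 FC of 0.52 and *CYCB2;2*, a mitotic cyclin, at 0.69. For 12 of the 26 (46.2%, against 13.3% of all genes) the age effect was higher at 0.2 mM than at 2 mM by the interaction test. Of 19 tested out of 22 growth regulators and expansins *EXPA1*, which loosens cell walls, rose, with 378, 348 and 366 CPM at 25 days, against 178, 177 and 160.5 CPM at 16 days (log2 FC = 1.08, SE = 0.0863, adjusted P = 1.73e-10), and *EXPA16* fell, with 3.87, 4.09 and 3.42 CPM at 25 days, against 8.93, 9.52 and 6.25 CPM at 16 days (log2 FC = -1.08, adjusted P = 1.39e-06). Each direction thus held 5.26% of the 19, beside 1.99% of all genes that rose and 2.45% that fell. On 2 mM KNO3 *EXPA1* averaged 159 CPM at 25 days, against 159.5 CPM at 16 days.

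Of 4 tested out of 10 heat shock genes none rose or fell, with 2 lower by the adjusted P alone. Of 133 plastid-encoded genes 9 were tested. ATCG01310 and ATCG00830 fell (log2 FC = -1.18 and -1.02), which is 22.2% of the 9, against 2.45% of all genes. Plastid transcripts made up 0.00903 to 0.0189% of the reads of the 6 libraries, which were prepared from polyadenylated RNA.

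Ageing was set beside the same comparison in the wild type at 0.2 mM KNO3, made with other plants, where 422 genes rose and 536 fell. The difference between genotypes in the age effect passed the test in 7 of 15108 genes (0.0463%), and 755 had an unadjusted P of at most 0.05. *EXO* and *AGP17*, both on the growth list and known from cell expansion and the cell wall, were among the 7, with an age effect in *nrt1.13* minus that in the wild type of -0.87 and -0.94 on the log2 scale. The call of *EXO* (adjusted P = 0.044) was lost in 16 alternative settings, with an adjusted P of up to 0.279, and that of *AGP17* in none of those run. For the main gene groups the medians were side by side, with log2 FC values in *nrt1.13* and in the wild type of -2.48 and -2.79 for cold and abscisic acid, -0.98 and -1.13 for glucosinolates, -0.84 and -1.30 for jasmonate, -0.41 and -0.49 for the photosystems and 0.57 and 0.66 for the ribosomal proteins. A P that misses the threshold does not show that the genotypes aged alike.

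The test for nitrate supply called many more genes than the test for genotype. In *nrt1.13* at 2 mM KNO3, 48 genes rose and 56 fell with age, and the age effect differed between the nitrate supplies in 4400 genes by the adjusted P, 2003 of them with a higher (13.3%) and 2397 with a lower value at 0.2 mM (15.9%). Among the ribosomal proteins it was higher at 0.2 mM for 185 of 265 (69.8%), and among the photosystem genes it was lower for 29 of 43 (67.4%). The medians on 2 mM KNO3 were 0.09 for the ribosomal proteins, 0.04 for the photosystems, -0.11 for jasmonate, -0.34 for glucosinolates and -0.25 for cold and abscisic acid, beside -0.0148 for all genes. *PR4*, *LHCB4.3*, *MYB29* and *PAP17* are examples of the contrary, with log2 FC values on 2 mM KNO3 of 1.61, 1.22, -0.68 and 0.99, near those on low nitrate.

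**Figure D5:**
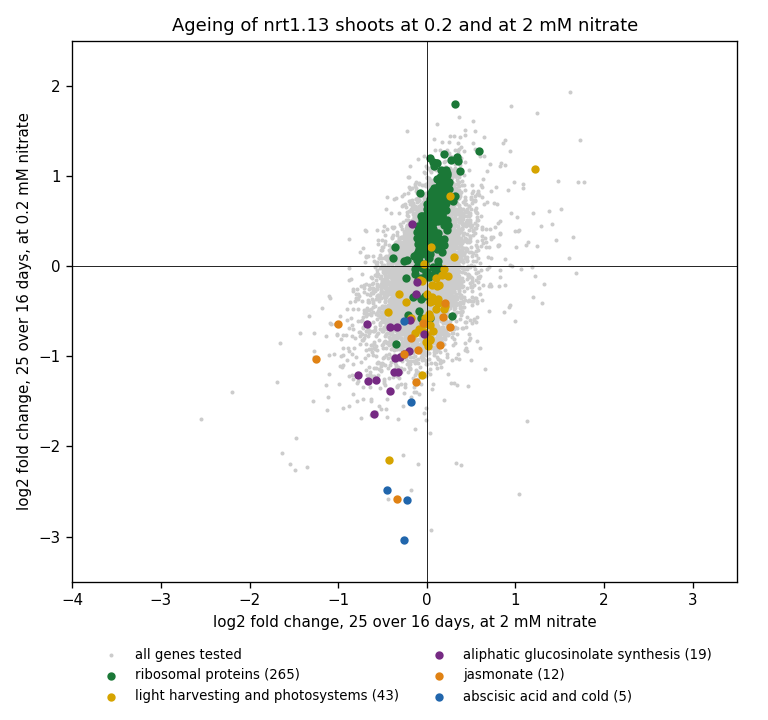
Log2 FC at 25 against 16 days in *nrt1.13*, with 2 mM KNO3 on the horizontal and 0.2 mM KNO3 on the vertical axis, 1 point a gene, with selected lists in colour. The 2 axes rest on different plants, the ribosomal proteins lie near 0 on the horizontal axis (median 0.09) and above 0 on the vertical (median 0.57), and the cold genes reach -3.04 on the vertical axis.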

How the data were processed

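Each library came from polyadenylated RNA of the shoot of 1 plant, made with a stranded kit. The authors trimmed the paired reads, mapped them to TAIR10 with CLC Genomics Workbench, kept unique matches and counted them per gene. Whether counting used the strand is not given in the sources used here. The deposited table holds this signal per gene as normalized CPM (reads scaled to library size) for 28775 genes in 24 libraries. CPM summed to 968394 to 1038371 per library, and the scaling behind this is not given in the sources used here. Each deposited CPM was a whole multiple of the value of 1 read (100% of values within 0.1 read), which gave totals of 23608279 to 46155689 reads; 2 CPM equals 46 to 90 reads in the 6 libraries. A count test on these reads called 393 genes higher and 303 lower.

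Testing was limited to genes that reached 2 CPM in each of the 24 libraries, and used limma 3.58.1 in R 4.3.3, on log2(CPM + 0.1), with a mean for each of the 8 groups and a spread shared by all libraries. P values were adjusted by Benjamini-Hochberg over the 15108 genes, and a fold change of 1.8 was also asked for, which understates low genes because of the pseudocount. Age by genotype and age by nitrate were tested as interactions, with no fold limit. Below the filter, a two-sided exact permutation test of 3 against 3 was used. Replicates are single plants, and no further batch is given.

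Genes were named by these rules: the 10 largest changes in each direction among called genes without overlap; the 5 largest in each direction of each interaction; all members of the gene lists, plastid-encoded genes and genes described as ribosomal; and *NRT1.13*. Comparison, members and lists were chosen with earlier results of these data known. The alternatives were other pseudocounts, filters, fold limits and scalings, edgeR 4.0.16 on the recovered reads, the replicate number as a block, and leaving out each library. IDs matched the RefSeq TAIR10.1 annotation for 28009 genes, and exact matches of 75-base windows of transcripts were used to look for near copies.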

Additional observations from a re-analysis of the deposited data

Results flagged for a closer look

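The age effect in *nrt1.13* at 0.2 mM KNO3 differed by a test of the difference itself from that of the wild type in 7 genes and from that at 2 mM KNO3 in 4400 genes. At most the 5 largest differences in each direction are given, 16 in all; the values are log2 FC differences with adjusted P values from limma, and their causes were not tested. Against the wild type, 5 of them had a lower age effect in *nrt1.13*. These were AT3G19680 (difference -0.937, adjusted P = 0.00907), *AGP17* (-0.936, adjusted P = 0.000604), AT2G47440 (-0.93, adjusted P = 0.00224), *EXO* (-0.87, adjusted P = 0.044) and AT1G10020 (-0.8, adjusted P = 0.0223). *HSFC1*, a heat shock transcription factor, had a higher one (0.878, adjusted P = 0.044), its log2 FC being -0.164 in *nrt1.13* and -1.04 in the wild type. These calls differed in how they held: over the alternative settings run, *EXO* lost its call in 16 (adjusted P up to 0.279), *HSFC1* in 14 (up to 0.485), AT1G10020 in 9 (up to 0.279) and AT3G19680 in 1 (0.195), and *AGP17* and AT2G47440 in none. With the replicate number as a block, *EXO* and *HSFC1* did not pass (adjusted P = 0.0667 and 0.0556).

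Against 2 mM KNO3, the age effect at 0.2 mM was lower for *COR413IM1* (-2.98, adjusted P = 8.22e-12), *FAMT* (-2.84, adjusted P = 1.39e-05), *COR15A* (-2.78, adjusted P = 2.29e-10), *CORI3* (-2.6, adjusted P = 1.99e-07) and AT1G76960 (-2.51, adjusted P = 5.13e-07). *FAMT*, a methyltransferase for farnesoic acid, and *CORI3*, a jasmonate-induced aminotransferase, fell at 0.2 mM with log2 FC values of -1.72 and -2.21, and had 1.126 and 0.391 at 2 mM. It was higher for AT2G40010 (1.48, adjusted P = 1.42e-06), AT3G51870 (1.46, adjusted P = 3.55e-07), AT4G14090 (1.33, adjusted P = 0.00676), *UF3GT* (1.3, adjusted P = 0.0213) and *FIB2* (1.3, adjusted P = 4.48e-06). Plant 2 at 25 days had the highest level of AT4G14090 and *UF3GT*.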

How the results depend on the processing

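With no filter on low values 590 genes rose and 756 fell, with the adjusted P alone 3206 and 4447, and with a fold limit of 1.5 952 and 1078. Age by genotype called 4 genes with no filter, 4 without the mean-variance trend and 2 with only the libraries compared. Leaving out one library at a time, 242 (without plant 1 at 25 days) to 391 genes (without plant 3 at 25 days) rose and 306 to 463 fell without those libraries. Age by genotype then called 3 (without wild-type plant 1 at 16 days) to 23 genes (without wild-type plant 1 at 25 days), and age by nitrate 1608 to 2343 higher and 1937 to 2754 lower. A pseudocount of 1 gave 256 and 301 genes. No named gene changed its direction past the threshold.

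With the replicate number as a block, 301 genes rose and 371 fell, and age by genotype called 6 genes. Same-numbered plants of the 2 ages correlated in their deviations from the group means by 0.0519, 0.172 and 0.39, and plant 1 at 25 days correlated best with plant 2 at 16 days (0.219), so the numbers were not taken as pairs. Counts of the lists without each library and the fit on the mean CPM were chosen after seeing the data. Depth limits genes under 2 CPM, for which 3 plants against 3 cannot reach an exact permutation P below 0.1.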
